A study of Mus musculus with 6 samples.

Results

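Arginine and polyamine metabolism was followed through 9 named genes: the arginases Arg1 and Arg2, the inducible nitric oxide synthase Nos2, the polyamine synthesis genes Odc1, Amd1, Srm and Sms, the regulator Azin1 and the acetyltransferase Sat1. They were taken by symbol from a table of 13912 genes, which held 8 of the 9. Amd1 was not among the genes tested and is not analysed here. The 6 libraries are RNA-seq of 4T1-Luc2-RFP cells, a BALB/c mouse mammary carcinoma line that carries luciferase and a red fluorescent protein. In the cultured group (3 libraries) the line had not been injected. In the tumour group (3 libraries) the cells had been recovered by FACS from intraductal mammary gland tumours. The titles of the tumour libraries also hold the word Right, which the labels do not explain. The labels give no age, time in the animal or sorting gate, and do not tie each library to its own culture or mouse, so p-values cover only the spread among libraries, part of which may be technical.

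Arginine is a branch point. Arginase turns it into ornithine and urea, while nitric oxide synthase turns it into citrulline and nitric oxide, and in macrophages and neutrophils of tumours high arginase is known for depriving T cells of arginine. Ornithine decarboxylase then makes putrescine, spermidine synthase and spermine synthase build the longer polyamines with aminopropyl groups supplied through Amd1, and the acetyltransferase Sat1 marks polyamines for breakdown or export. Antizymes send ornithine decarboxylase to the proteasome, and the antizyme inhibitor Azin1, an inactive relative of the decarboxylase, opposes them.

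The arginine-consuming enzymes and the polyamine acetyltransferase were higher in the tumour libraries, and Odc1 and Srm, which make polyamines, were lower. Arg1, Arg2, Nos2 and Sat1 rose, Odc1, Azin1 and Srm fell, and Sms did not pass the test. Changes are tumour mean minus cultured mean of log2 CPM (log2 of reads scaled to the size of the library), tested in limma over all genes with Benjamini-Hochberg adjustment at 0.05. The 4 members called higher stand against 29.5% of all genes called higher, and the 3 called lower against 18.8% called lower. In all, 48.2% of genes were called, so 7 of 8 is to be read against a high background. Of the called genes 61.1% were higher on the deposited scale, and 35.2% to 85.4% under 3 other scalings of the libraries. The groups did not overlap for 7 of the 8, against 59.8% of all genes. The plot of log2 CPM by library shows the opposite shifts.

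**Figure D1:**
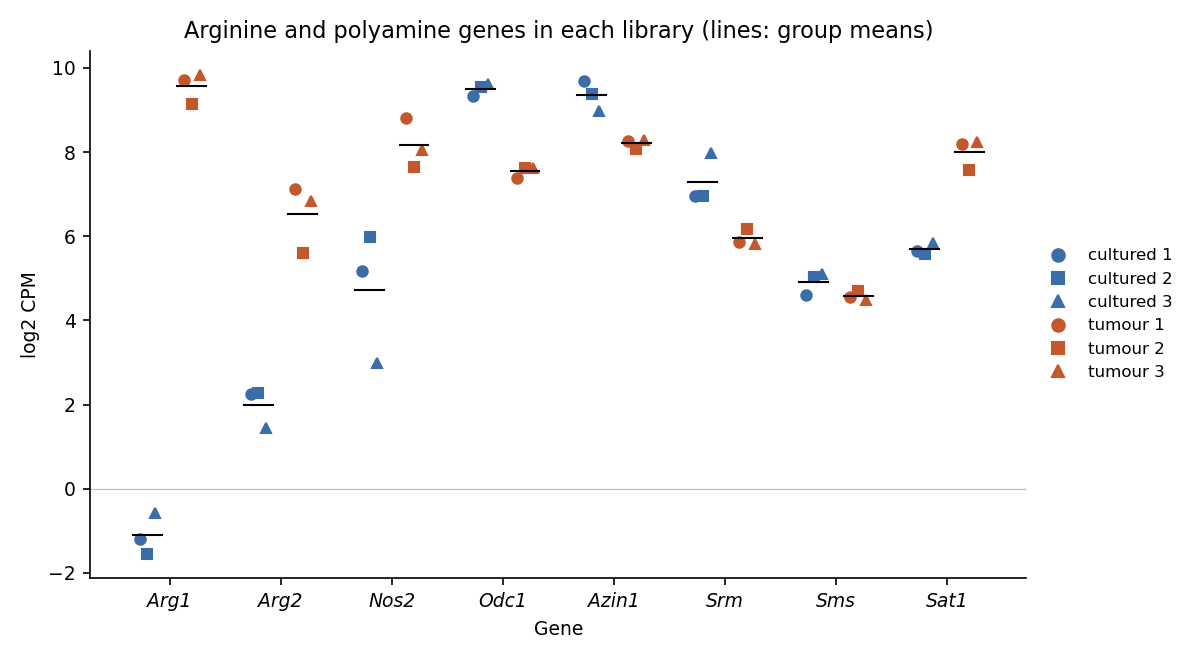
Level of each of the 8 genes (x axis) in log2 CPM (y axis) in every library; blue points are cultured, orange are tumour, the marker shape gives the library and black lines are group means. Arg1 moves from below 0 to above 9 log2 CPM, Odc1 moves from above 9 to below 8, and only Sms has overlapping groups.

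Reads per library, summed over the 13912 genes, were 35448588 to 41469090, solved from the deposited values. Markers of host cells were present in the tumour libraries. All 14 macrophage and monocyte markers were called higher, with a summed level of 28.1 to 39.4 CPM in culture and 6522 to 9711 CPM in the tumour libraries. All 11 tested neutrophil markers of 12 listed were called higher, with sums of 0.177 to 0.798 CPM in culture and 437 to 4044 CPM in the tumour libraries, and Mmp8, Ngp and Retnlg had 0 reads in culture. For fibroblasts the count was 10 of 10 (23.9 to 51.7 against 6684 to 8535 CPM), for dendritic cells 9 of 10 (5.02 to 24.6 against 4743 to 6727 CPM; Cd209a, Clec9a and Flt3 at 0 reads in culture). For endothelium it was 9 of 10 (10.8 to 15.8 against 116 to 170 CPM; Cldn5 and Emcn at 0 reads in culture) and for lymphocytes 4 of the 4 tested of 10 listed (at most 0.0221 against 5.61 to 7.87 CPM; Cd4, Cd8a and Klrb1c at 0 reads in culture). Many of these calls were in part fixed by how the table was made. The cultured reads alone were fewer than 61, the smallest total of any gene in the table, for 9 of the 14 macrophage, 11 of 11 neutrophil, 8 of 10 fibroblast, 8 of 10 dendritic, 8 of 10 endothelial and 4 of 4 lymphocyte markers, which were in the table through their tumour reads. The counts of calls are therefore a description. The summed levels hold the same genes, so their direction was in part fixed too, and they are also a description. Some sums rest on a few genes. Most of the dendritic tumour value was Cd74, H2-Aa and H2-Ab1 (means 3535.5, 1095 and 876 CPM). Itgax had a tumour mean of 327, Ccr7 13.5, Cd209a 8.46, Clec9a 1.15, Xcr1 0.661 and Flt3 0.622 CPM. Zbtb46 was not called (change 0.15, limma adjusted p = 0.792). The dendritic sum thus describes a few genes more than the whole list. The same held for fibroblasts. Most of their tumour value was Col3a1, Col1a1 and Col1a2 (means 2484, 2227 and 1891 CPM), against 40.6 for Lum and 9.07 for Fap. The summed epithelial list, 11 genes, was 2861 to 3660 CPM in culture and 2721 to 3166 CPM in the tumour libraries, and 5 of its genes were called lower and 0 higher. The part of host RNA in the changes below was not tested. A change in a level of this kind cannot tell more cells of a type from more RNA per cell.

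Arg1, the cytosolic arginase, showed the largest change of the 8. It lies on chromosome 10 from 24915221 to 24927484 of GRCm38 (minus strand, protein-coding). Its level was -1.20, -1.55 and -0.57 log2 CPM in cultured libraries 1, 2 and 3, which rests on 18, 15 and 23 reads. In tumour libraries 1, 2 and 3 it was 9.72, 9.14 and 9.84 log2 CPM, from 31068, 22873 and 34741 reads. Every tumour library was far above every cultured library, and tumour library 2 was the lowest of its group. The change was 10.67 (SE 0.31, limma adjusted p = 6.42e-07), from 0.471 ± 0.170 to 774 ± 186 CPM (SD, n = 3). By its change Arg1 was number 207 of the 13912 genes, and by its mean level it moved from place 11643 in culture to place 142 in the tumour libraries. Its 56 cultured reads are fewer than the 61 that the least abundant gene of the table had over all 6 libraries, so Arg1 was in the table through its tumour reads, and a rise was in part fixed by that.

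Arg2, the mitochondrial arginase, lies on chromosome 12 from 79130777 to 79156301 (plus strand, protein-coding). It was expressed in culture at a low level, 2.26, 2.27 and 1.44 log2 CPM in libraries 1, 2 and 3. In the tumour libraries it reached 7.13, 5.61 and 6.83 log2 CPM. The groups did not overlap, and the order of the tumour libraries put library 2 lowest, as for Arg1. The change was 4.53 (SE 0.42, limma adjusted p = 7.48e-05), or 4.10 ± 1.21 to 101 ± 47.0 CPM (SD, n = 3). Exons of 2 genes on the other strand, Vti1b and Gm48780, overlap 401 of its 1428 exon bases. Whether reads were counted by strand is not given in the sources used here, so part of the Arg2 value could be theirs.

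Nos2, the inducible synthase that inflammatory cytokines switch on, was already expressed in cultured cells. It lies on chromosome 11 from 78920787 to 78960254 (plus strand, protein-coding). Cultured libraries 1, 2 and 3 had 36.0, 63.1 and 7.95 CPM, and tumour libraries 1, 2 and 3 had 452, 199 and 266 CPM. The groups did not overlap, yet the cultured libraries differed among themselves more than for any other of the 8 genes, with library 3 lowest. The change was 3.46 (SE 0.71, limma adjusted p = 0.00503). Its size depended on single cultured libraries. It was 2.60 (limma adjusted p = 0.0012) without cultured library 3 and 4.09 (limma adjusted p = 0.00317) without cultured library 2.

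Tumour library 2 was the lowest of its group for Arg1, Arg2, Nos2 and Sat1, and also for Azin1, which fell (268 CPM against 307 and 312). For Odc1 (198 CPM against 167 and 197), Srm (72.4 against 58.7 and 56.4) and Sms (26.0 against 23.5 and 22.4) it was the highest. The summed macrophage list was lowest in library 2, at 6522 CPM against 8791 and 9711 in libraries 1 and 3. So was the summed neutrophil list, at 437 CPM against 4044 and 1984. The same held for the fibroblast list (6684 CPM against 7296 and 8535), and for the dendritic, endothelial and lymphocyte lists. Of the epithelial markers, Cdh1, Epcam and Cldn7 were also lowest in library 2 and the rest were not. The summed epithelial list was lowest in library 1 (2721 CPM against 3124 and 3166). The reason for these orders was not tested. Arg1, Arg2, Nos2 and Sat1 and 3 of the marker lists are set side by side in the plot of members beside marker lists.

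**Figure D2:**
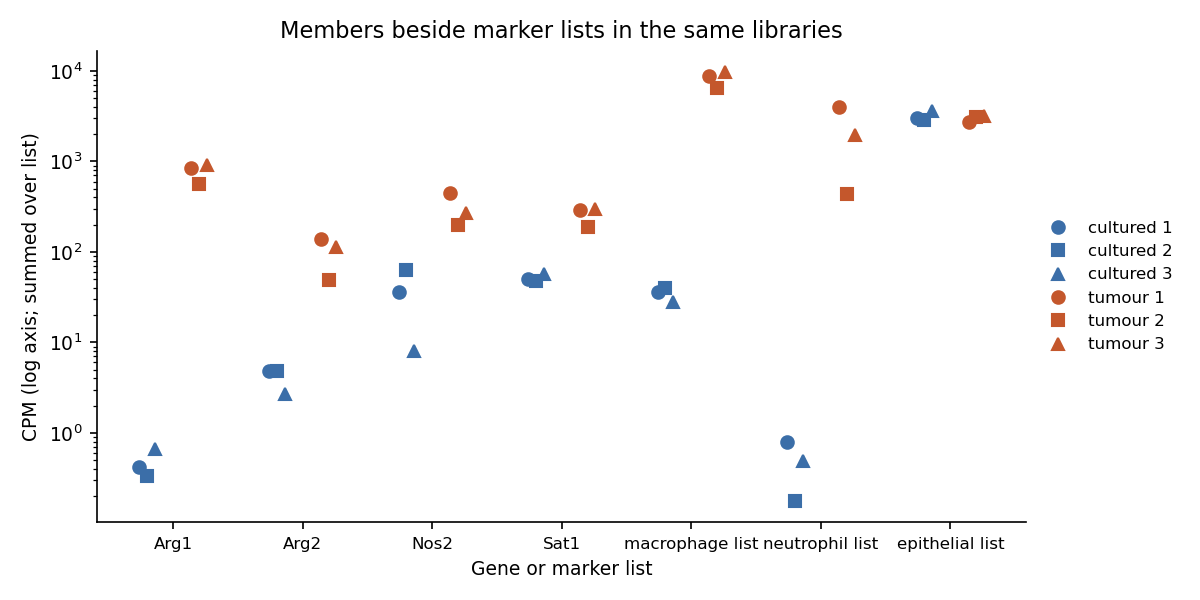
CPM on a log axis (y axis) of Arg1, Arg2, Nos2 and Sat1 and the summed CPM of 3 marker lists (x axis), with 1 point per library, blue for cultured and orange for tumour. Tumour library 2 (orange square) is lowest in its group for all 4 genes and for the macrophage and neutrophil lists, while the epithelial list lies between 2721 and 3660 CPM in all 6 libraries.

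Odc1 encodes ornithine decarboxylase, the rate-limiting enzyme of polyamine synthesis and a textbook MYC target. It lies on chromosome 12 from 17544794 to 17551505 (plus strand, protein-coding). Sat1 encodes the spermidine and spermine acetyltransferase that polyamines themselves induce, and lies on chromosome X from 155213132 to 155216449 (minus strand, protein-coding). The stretches before their start sites are printed because these 2 members moved in opposite directions. Of the 9 members, 4 had an entry in the RefSeq promoter table of build GRCm38.p6, namely Odc1, Sms, Sat1 and Amd1. Both stretches run 5′ to 3′ on the strand of the gene and end before the first start annotated in GENCODE or RefSeq. Capitals mark the letters GGGCGG, the GC box bound by Sp1 family factors, on either strand.
Odc1, chr12:17544623-17544793, plus strand: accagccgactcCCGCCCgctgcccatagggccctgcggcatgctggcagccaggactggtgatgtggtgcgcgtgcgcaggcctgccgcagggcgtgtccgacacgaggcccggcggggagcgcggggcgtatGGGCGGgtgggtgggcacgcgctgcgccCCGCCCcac
Sat1, chrX:155216450-155216699, minus strand: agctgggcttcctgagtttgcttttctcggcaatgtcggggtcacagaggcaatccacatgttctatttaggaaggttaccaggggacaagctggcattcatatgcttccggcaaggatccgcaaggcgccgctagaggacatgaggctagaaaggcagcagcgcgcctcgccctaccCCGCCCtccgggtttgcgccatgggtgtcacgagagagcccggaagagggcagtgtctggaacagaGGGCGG
The 171 bases of Odc1 held GGGCGG 3 times. At least 1 match was found in 19.6% of 32851 promoter entries over the same 171 bases, and 3 or more in 2.78%. The 250 bases of Sat1 held it 2 times. Over that length 32.7% of entries held at least 1 match and 8.47% held 3 or more, and the share with 2 or more was not counted. No GC box match overlapped another motif searched, since CACGTG, the E-box of MYC and its relatives, and TATAAA were not found in either window. The RefSeq start of Odc1 is at 17544873, past the end of its window, and the bases between were not searched. Sequence within the genes was not searched either. CACGTG stood in 3.4% of entries over 171 bases and 6.0% over 250, and TATAAA in 8.1% and 12.4%. Both strands were searched for each.

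The level of Odc1 was 9.34, 9.55 and 9.62 log2 CPM in cultured libraries 1, 2 and 3 and 7.38, 7.63 and 7.62 log2 CPM in the tumour libraries. All 3 tumour libraries lay below all 3 cultured libraries, and the spread within each group was small (SD 0.15 and 0.14). The change was -1.96 (SE 0.16, limma adjusted p = 3.26e-05), a fall from 728 ± 72.6 to 187 ± 17.7 CPM (SD, n = 3). The gene was number 108 of 13912 by its mean in culture and number 1142 in the tumour libraries. By its change it was number 200 counted from the most negative.

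Azin1, the antizyme inhibitor that shields ornithine decarboxylase, also fell. It lies on chromosome 15 from 38487427 to 38519266 (minus strand, protein-coding). Cultured libraries 1, 2 and 3 had 827, 664 and 504 CPM, and tumour libraries 1, 2 and 3 had 307, 268 and 312 CPM. The groups did not overlap, and the cultured libraries were the more spread. The change was -1.14 (SE 0.21, limma adjusted p = 0.00295).

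Srm, spermidine synthase, fell as well, and Sms, spermine synthase, did not pass the test. Srm lies on chromosome 4 from 148591503 to 148594993 (plus strand) and Sms on chromosome X from 157443855 to 157492287 (minus strand), both protein-coding. For Srm, cultured libraries 1, 2 and 3 had 123, 125 and 254 CPM and tumour libraries 1, 2 and 3 had 58.7, 72.4 and 56.4 CPM. Cultured library 3 stood above the other cultured libraries, and the groups did not overlap. The change of Srm was -1.34 (SE 0.29, limma adjusted p = 0.00658), and without cultured library 3 it was -0.997 (limma adjusted p = 0.00122). With libraries scaled to the epithelial list the change of Srm was -0.94 and its call was lost (limma adjusted p = 0.0713). For Sms, cultured libraries had 24.1, 32.8 and 34.5 CPM and tumour libraries 23.5, 26.0 and 22.4 CPM. Here the groups overlapped. The change of Sms was -0.33 (95% interval -0.78 to 0.12, limma adjusted p = 0.192), so a fall of up to 0.78 on the log2 scale lies within its interval. Sms was called lower when each library was centred on its median (-0.56, limma adjusted p = 0.0478) and after quantile normalization (-0.56, limma adjusted p = 0.0342), and its value was 0.069 (limma adjusted p = 0.842) with libraries scaled to the epithelial list.

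Sat1, the catabolic member, rose. Cultured libraries 1, 2 and 3 had 50.4, 48.0 and 57.3 CPM, and tumour libraries 1, 2 and 3 had 292, 189 and 302 CPM. The cultured libraries lay close together, and the lowest tumour library, again library 2, was above all of them. The change was 2.30 (SE 0.21, limma adjusted p = 5.90e-05).

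**Figure D3:**
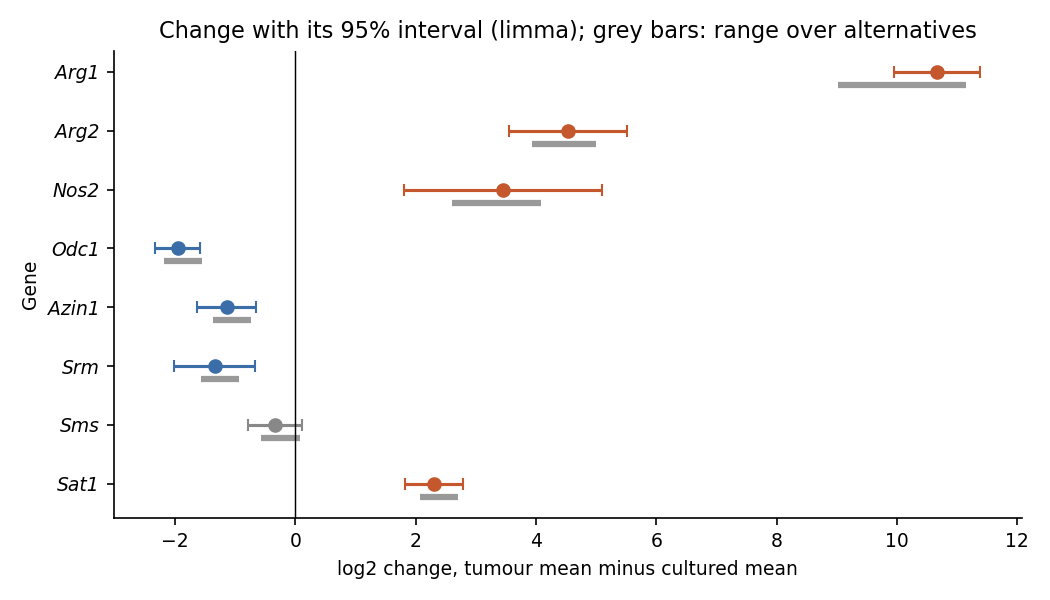
log2 change from cultured to tumour (x axis) for the 8 genes (y axis); points with bars are limma estimates with 95% intervals (orange called higher, blue called lower, grey not called), and grey bars below span the values under all alternative settings. The interval of Sms, -0.78 to 0.12, is the only 1 that includes 0.

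Reads from near-identical copies bear on some of these values. At 95% identity over at least 100 bases, transcripts of other genes covered 62.8% of the longest protein-coding Odc1 transcript (8 genes, 6 of them pseudogenes). The share was 44.4% for Sat1 and 29.6% for Sms, all through pseudogenes, 27.3% for Arg2 and 7.4% for Azin1 through genes on the other strand, and 0 for Arg1, Nos2 and Srm. For Amd1 it was 99.8%, with Amd2 and processed pseudogenes among the copies. Reads that fit several places may be missing from the table, so levels of Odc1, Sat1 and Sms may be too low in every library. Among the related genes searched for copies, the largest shares were 81.9% for Ahcy, 73.1% for Ass1, 67.4% for Dohh and 63.6% for Oaz1. Paox (34.4%) and Eif5a (32.2%) came next, and the levels of all 6 may be affected too.

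Levels of different members were compared per length, as RPKM, CPM divided by the kilobases of annotated exon. In culture the order of means was Odc1 (214 ± 21.3 RPKM), Azin1 (106 ± 25.8), Srm (105 ± 46.8), Sat1 (18.7 ± 1.73), Nos2 (8.09 ± 6.25), Sms (5.07 ± 0.92), Arg2 (2.87 ± 0.85) and Arg1 (0.212 ± 0.076; RPKM, SD, n = 3). Azin1 and Srm overlapped, as did Nos2 with Sms and with Arg2, and the other neighbours did not. In the tumour libraries the order was Arg1 (347 ± 83.7 RPKM), Sat1 (94.1 ± 22.5), Arg2 (70.6 ± 32.9), Nos2 (69.3 ± 29.7), Odc1 (55.0 ± 5.20), Azin1 (47.3 ± 3.82), Srm (39.1 ± 5.38) and Sms (3.99 ± 0.31; RPKM, SD, n = 3). Arg1 stood above all others and Sms below all others in every tumour library. Between them each gene overlapped its neighbours in that order. The least abundant member per length in culture, Arg1, was thus the most abundant in the tumour libraries.

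The balance between members was also taken within each library, where scaling between libraries cancels. Per exon base, Odc1 was 10.4, 12.7 and 11.2 times Sat1 in cultured libraries 1, 2 and 3. In tumour libraries 1, 2 and 3, Sat1 was 2.15, 1.17 and 1.88 times Odc1. The mean log2 difference moved by 4.26. Which gene was ahead in the tumour libraries is less sure, since near copies cover different shares of the transcripts. The covered share of the longest transcript was applied to all exon bases, as if no read from covered bases had been counted. Sat1 would then be 1.44, 0.784 and 1.26 times Odc1 in tumour libraries 1, 2 and 3. Odc1 would be ahead in library 2 on this reckoning, but that order depends on the length used. The longest transcripts hold 2208 bases (Odc1) and 1162 (Sat1), against 3405 and 2774 exon bases. The alternative with covered bases left out was added after the values were seen. Nos2 was 43.1, 96.2 and 6.08 times Arg1 per exon base in cultured libraries 1, 2 and 3, where Arg1 had at most 23 reads. In tumour libraries 1, 2 and 3, Arg1 was 3.69, 5.61 and 6.81 times Nos2. So Nos2 was ahead of Arg1 in each cultured library, and Arg1 ahead of Nos2 in each tumour library. This does not hold for Arg2, the other arginase. In cultured libraries 1, 2 and 3, Arg2 had 3.35, 3.37 and 1.89 RPKM against 8.17, 14.3 and 1.80 for Nos2. In tumour libraries 1, 2 and 3, Arg2 had 98.2, 34.1 and 79.6 RPKM against 102, 45.1 and 60.4 for Nos2.

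The ratio of Odc1 to its protector Azin1 was lower in the tumour libraries. Per exon base it was 1.44, 2.08 and 2.86 in cultured libraries 1, 2 and 3 and 0.999, 1.36 and 1.16 in tumour libraries 1, 2 and 3. These groups did not overlap, but the gap between 1.44 and 1.36 is small beside the spread. A pair of ratios was added after the values were seen. Arg2 was 17.7, 22.7 and 6.38 times Arg1 in cultured libraries, and Arg1 was 3.85, 7.40 and 5.17 times Arg2 in tumour libraries. Odc1 over Srm ran from 1.46 to 2.83 in culture and from 1.29 to 1.64 in the tumour libraries, so that those groups overlapped. None of these ratios was tested.

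**Figure D4:**
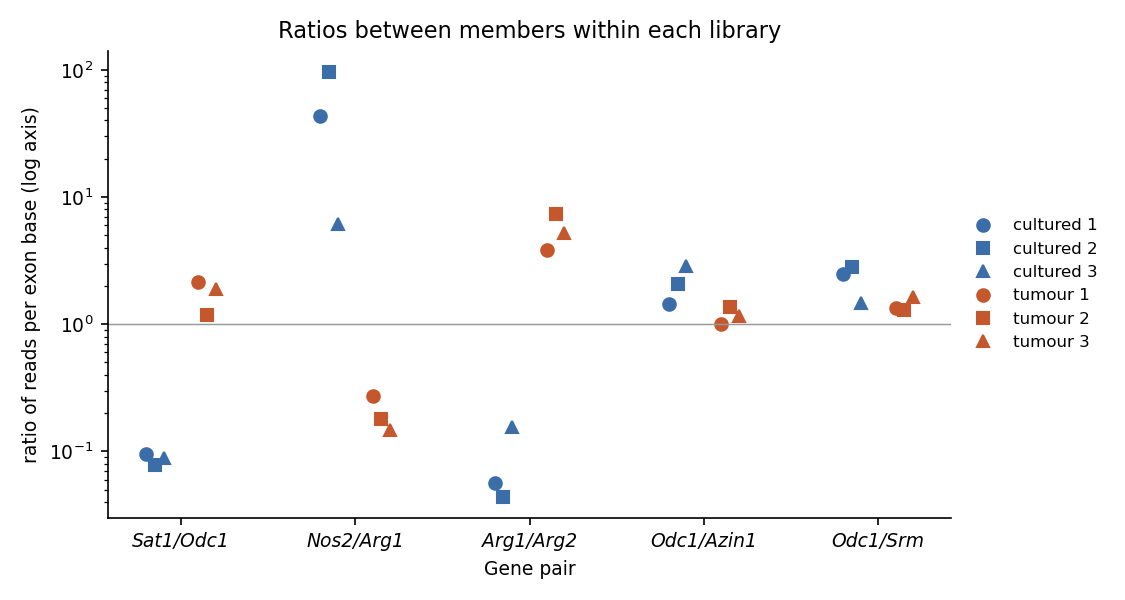
Ratio of reads per exon base between members (y axis, log scale) for 5 gene pairs (x axis), with 1 point per library, blue for cultured and orange for tumour. Per exon base, Sat1/Odc1 and Arg1/Arg2 go from below 1 in all cultured to above 1 in all tumour libraries (Sat1/Odc1 in tumour library 2 only to 1.17), Nos2/Arg1 goes the other way, and Odc1/Srm overlaps.

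Another 48 tested genes around the pathway were listed by role. Of these 12 (25.0%) were called higher and 14 (29.2%) lower, against 29.5% and 18.8% of all 13912 genes. The median change was -0.13, and over all genes it was 0.08. The count of each list below stands against the same 29.5% and 18.8%. These lists are short, and their counts were not tested. Of the 12 called higher, Ass1, Slc7a2 and Gatm were in the table only through their tumour reads, and of the 14 called lower, Atp13a4 only through its cultured reads, so that their directions were in part fixed. The lists moved in both directions, as the plot of pathway genes shows. Each is given below by its counts.

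Arginine carriers moved in opposite directions. Of 7 transporters of cationic and large amino acids, 2 were called higher and 3 lower (median change -0.48). Slc7a1, the widely expressed arginine carrier CAT1, was at 9.29, 8.95 and 8.06 log2 CPM in cultured libraries 1, 2 and 3 and at 6.71, 6.77 and 6.44 log2 CPM in the tumour libraries. All tumour values lay below all cultured ones (change -2.13, SE 0.30, limma adjusted p = 0.000817). Slc7a2, the inducible carrier CAT2 that macrophages use, was read 0, 2 and 0 times in culture against 3600, 2035 and 3320 times in the tumour libraries. The ratio of CPM over those 2 cultured reads was 4761 (95% counting interval 1318 to 39320), and such a gene was in the table only through its tumour reads. Slc7a7, a light chain of cationic amino acid exchange found in macrophages and gut, had a change of 2.80 (limma adjusted p = 0.000135).

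Of 3 tested genes that supply arginine and carry ornithine, 1 was called higher and 1 lower (median -0.32). Ass1, argininosuccinate synthase, which rebuilds arginine from citrulline, had 5, 2 and 8 reads in culture and 33, 30 and 22 reads in tumour libraries (change 2.62, limma adjusted p = 0.00722). A pseudogene, Gm5424, covers 73.1% of its transcript, so reads may be missing here too, and its 15 cultured reads are fewer than the 61 of the least abundant gene. On the log2(CPM + 1) scale its change was 0.62 (limma adjusted p = 0.00518). After quantile normalization its change was -1.49 (limma adjusted p = 0.0549). Slc25a15, the mitochondrial ornithine carrier, fell (change -1.27, SE 0.21, limma adjusted p = 0.00189).

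Around nitric oxide, 4 of 8 tested genes were called higher and 2 lower (median 0.34). Gch1, the first enzyme of tetrahydrobiopterin, the cofactor of the synthases, rose (change 2.16, SE 0.49, limma adjusted p = 0.00847), from 273, 702 and 135 reads in the libraries of the cultured group to 1429, 925 and 1482 in those of the tumour group. Its cultured libraries had the same order as those of Nos2. Nos3, the endothelial synthase, rose from 0.716 ± 0.193 to 4.04 ± 0.53 CPM (SD, n = 3; change 2.50, limma adjusted p = 0.000533). In the same libraries the summed endothelial list was 10.8 to 15.8 CPM in culture and 116 to 170 in tumour. Most of the cultured sum was Egfl7 (mean 10.2 CPM), which was not called, so it says little of an endothelial level in culture. After quantile normalization the change of Nos3 was 0.31 (limma adjusted p = 0.465), and on the log2(CPM + 1) scale it was 1.55 (limma adjusted p = 0.000151). Ddah1, which breaks down the methylarginines that inhibit nitric oxide synthases, fell (change -2.18, SE 0.27, limma adjusted p = 0.000348). Its relative Ddah2, named after its value was seen, rose (change 1.13, SE 0.27, limma adjusted p = 0.0102). Per length, Ddah1 went from 37.3 ± 14.7 to 7.84 ± 0.71 RPKM, and Ddah2 from 27.0 ± 8.18 to 58.1 ± 13.6 RPKM (SD, n = 3).

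Other uses of arginine and ornithine gave 2 of 8 genes higher and 4 lower (median -0.92). Gatm, which starts creatine synthesis from arginine, was read 5, 2 and 2 times in culture against 11058, 8597 and 10802 times in the tumours (change 11.68, SE 0.37, limma adjusted p = 7.25e-07) and, like Arg1, had fewer cultured reads than the 61 of the least abundant gene. Gamt, the next creatine enzyme, had a change of 1.84 (limma adjusted p = 0.00734), and of -0.084 after quantile normalization. Aldh18a1, which makes the glutamate semialdehyde used for proline and ornithine, fell (change -1.93, SE 0.43, limma adjusted p = 0.00792). Cultured libraries 1, 2 and 3 had 529, 497 and 158 CPM, so the size of its change depended on them. It was -2.50 (limma adjusted p = 8.87e-06) without cultured library 3 and -1.62 (limma adjusted p = 0.0297) without cultured library 1.

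The polyamine control genes did not move as a block. Of 3 antizyme system genes, 2 were called higher and 0 lower (median 0.75). Azin2, the antizyme inhibitor of brain and testis, rose from 5.09 ± 3.30 to 22.4 ± 3.50 CPM (SD, n = 3; change 2.41, limma adjusted p = 0.00868), opposite to Azin1. Oaz2, an antizyme, had a change of 0.75 (limma adjusted p = 0.00938), and without tumour library 1 its call was lost (0.73, limma adjusted p = 0.0515). Oaz1, the main antizyme, had a change of 0.29 (95% interval -0.33 to 0.91, limma adjusted p = 0.396) and of -0.71 after quantile normalization (limma adjusted p = 0.053), and 63.6% of its transcript has a pseudogene copy.

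In polyamine oxidation and acetylation, 0 of 3 tested genes passed in limma, with changes of 0.46 for Smox, 0.49 for Paox and 1.04 for Sat2, named after its value was seen (median 0.49). At an unadjusted p under 0.05 the count was also 0, and so few genes say little against 29.5%. Smox, spermine oxidase, was at 7.47, 8.72 and 6.50 log2 CPM in cultured libraries 1, 2 and 3 and at 8.59, 7.48 and 8.01 log2 CPM in tumour libraries. The groups overlapped (95% interval of the change -0.79 to 1.71, limma adjusted p = 0.51), and the change was -0.073 without cultured library 3 and 1.04 without cultured library 2. Within each group the libraries had the order of the Nos2 values, 2 then 1 then 3 in culture and 1 then 3 then 2 in the tumours. Paox, the oxidase of acetylated polyamines, had a change of 0.49 (limma adjusted p = 0.191), and of -1.29 after quantile normalization (limma adjusted p = 0.00342). It was called higher with libraries scaled to the epithelial list (0.89, limma adjusted p = 0.029).

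Of 4 hypusine genes, which use spermidine to modify the translation factor eIF5A, 0 passed (median -0.34; at an unadjusted p under 0.05 also 0). Eif5a itself had a change of -0.68 (95% interval -1.38 to 0.03, limma adjusted p = 0.104) and was called lower after quantile normalization (-0.96, limma adjusted p = 0.00985), with libraries centred on their median (-0.90, 0.0454) and with library weights (-0.53, 0.0495). Without cultured library 3 its change was -0.35 (limma adjusted p = 0.102). Dohh, the hydroxylase, had a change of -0.50 (limma adjusted p = 0.272), and of -0.067 without cultured library 3. Of 8 genes that supply methionine groups and salvage methylthioadenosine, the by-product of polyamine synthesis, 3 were called lower and 0 higher (median -0.04). Mri1 had a change of -1.38 (limma adjusted p = 0.00111), Ahcy -0.94 (limma adjusted p = 0.0401) and Enoph1 -0.89 (limma adjusted p = 0.0305). Near copies covered 81.9% of the Ahcy transcript. The call for Ahcy was lost without cultured library 1 or 3 or without any 1 tumour library (limma adjusted p 0.0577 to 0.147), and that for Enoph1 without any 1 tumour library (0.0563 to 0.101). Both were also lost with libraries scaled to the epithelial list (0.273 for Ahcy and 0.303 for Enoph1), and that for Enoph1 with no variance trend (0.0503). Without cultured library 3 the change of Enoph1 was -0.57 (limma adjusted p = 0.016). Of 4 polyamine transport genes, 1 was called higher and 1 lower (median 0.11). Atp13a2, a lysosomal polyamine exporter, rose from 15.2 ± 4.15 to 102 ± 14.0 CPM (SD, n = 3; change 2.77, SE 0.23, limma adjusted p = 3.67e-05), and Atp13a4 had a change of -2.14 (limma adjusted p = 0.0188) from 70 cultured and 12 tumour reads. It was not called without tumour library 3 (limma adjusted p = 0.0701) or on the log2(CPM + 1) scale (-0.46, limma adjusted p = 0.0632).

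**Figure D5:**
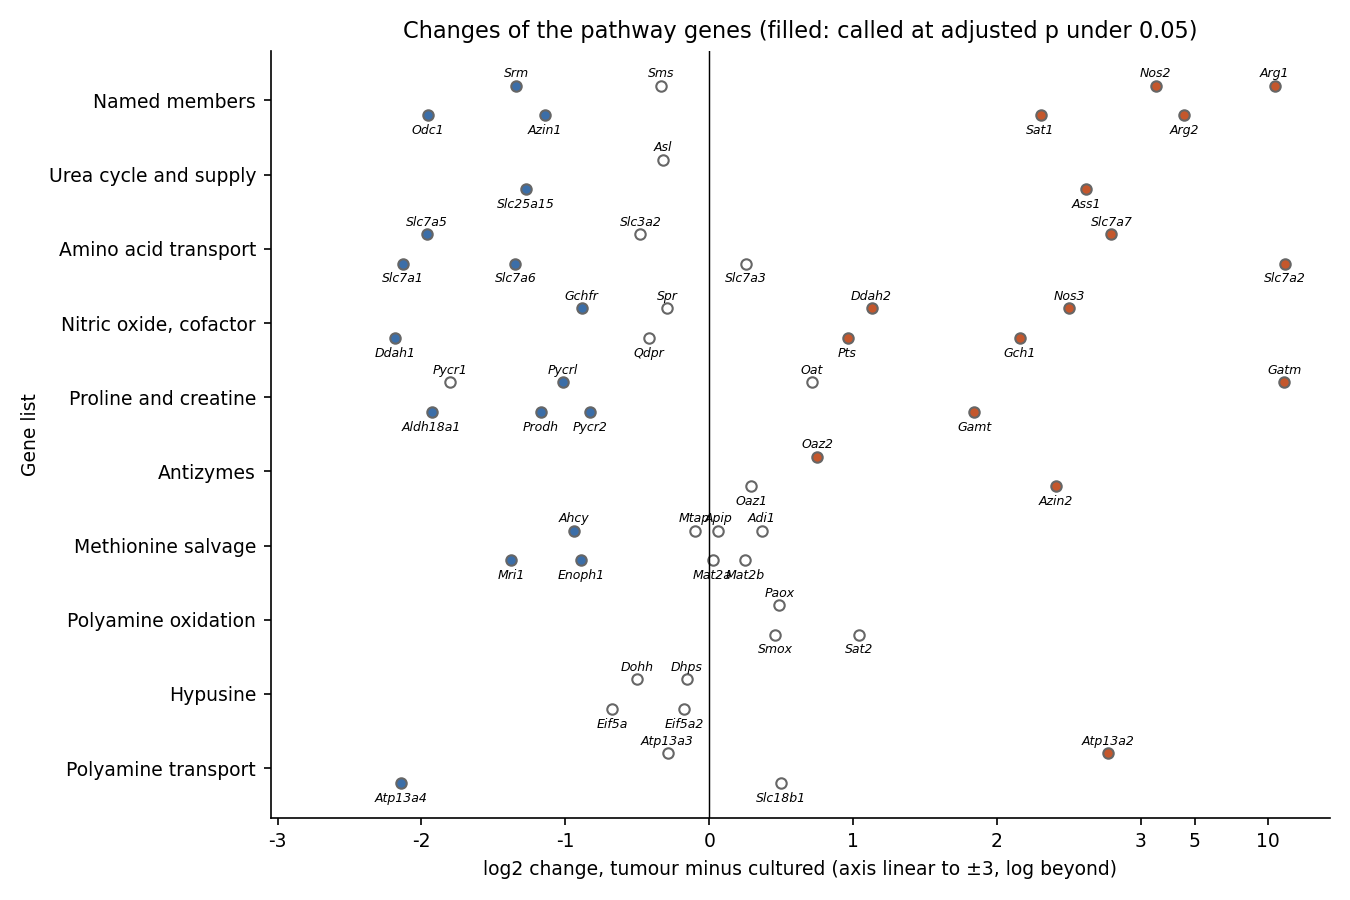
log2 change (x axis, linear to 3 on either side and logarithmic beyond) of the 8 members and 48 related genes by list (y axis); filled points were called at an adjusted p under 0.05, orange higher and blue lower, open points were not called. Polyamine oxidation and hypusine hold open points only, and Arg1, Slc7a2 and Gatm lie farthest to the right.

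The genes with the profiles nearest to 3 members were found over the 6 libraries by the Euclidean distance of mean-centred log2 CPM. Nearest to Odc1 were Ckap2l (0.277), Nop14 (0.283) and Dtl (0.291). Nearest to Nos2 were Osbp2 (0.628), Tgm2 (0.664) and Mgarp (0.678). Nearest to Arg1 were Ubqln2 (0.496), Tfec (0.497) and Lrrc32 (0.524), each at a cultured mean of -6.35 log2 CPM, the value that 0 reads give, so their nearness to Arg1 depends on the added 0.5 reads. These distances are a description over 6 libraries in 2 groups, and any gene with a like change between the groups is near.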

How the data were processed

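Total RNA was purified on columns (RNeasy) and sequenced from TruSeq RNA libraries, per the labels. HISAT with build mm10, HTSeq and limma are named, without versions, per the submitters' processing notes. The authors deposited log2 CPM in voom form, with 0.5 reads added and library totals scaled by TMM (trimmed mean of M-values). Solved for reads, all values were whole within 0.01. No gene had under 61 reads over the 6 libraries. A filter before deposit and its rule are not given in the sources used here.

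Deposited log2 values of all 13912 genes were fitted in limma 3.58.1 (R 4.3.3) with a variance trend, 3 tumour against 3 cultured libraries, two-sided, with Benjamini-Hochberg adjustment at 0.05; the fit was tested on simulated reads. Libraries are numbered within a group in the order of their labels. CPM and RPKM came from the solved reads and the TMM totals, with exon lengths from GENCODE M21 (GRCm38, the assembly mm10 names). Near copies were found with blastn 2.17.0 among GENCODE transcripts. A gene of the epithelial list is not reported here and was left out of it after the data were seen. Members and lists were chosen with earlier results of these data known. The text names all members, Oaz1, Smox and Paox. From each list it names up to 3 called genes with the largest change, or the 2 most abundant where none passed. Sat2 and Ddah2 were added after their values were seen. Intervals on read ratios cover counting error only. Alternatives were 3 other scalings, 3 other variance models, a filter, another pseudocount and leaving out libraries. Leaving out cultured library 3 and tumour library 2 together was chosen after seeing the data, as were the ratios of Arg1 to Arg2 and Odc1 to Srm.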

Additional observations from a re-analysis of the deposited data

How the results depend on the processing

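Arg1, Arg2, Nos2, Sat1, Odc1 and Azin1 kept their direction and their call in all 15 alternatives, with limma adjusted p of at most 0.0291. Srm kept its direction in all 15 and its call in 14, losing it with scaling to the epithelial list (-0.9388, limma adjusted p = 0.0713; adjusted p over the alternatives 0.000451 to 0.0713). Ranges of the log2 change were 9.02 to 11.15 for Arg1, 3.94 to 4.99 for Arg2, 2.60 to 4.09 for Nos2, 2.08 to 2.71 for Sat1, -2.18 to -1.56 for Odc1, -1.37 to -0.74 for Azin1 and -1.57 to -0.94 for Srm. Sms was called with libraries centred on their median (-0.558) and after quantile normalization (-0.564), and was 0.069 with the epithelial scaling. Those scalings lower the median change of all genes from 0.080 to -0.145 and -0.325, and scaling to the epithelial list raises it to 0.482. The share of called genes that were higher was 61.1% as deposited and 48.1%, 35.2% and 85.4% under these 3 scalings. Genes called lower numbered 2612, 908 with the epithelial scaling and 5513 after quantile normalization. With single libraries left out they numbered 1520 (without tumour library 3) to 3301, with 1558 without tumour library 1. Quantile normalization turned the direction of Ass1 (-1.489), Gamt (-0.0839) and Paox (-1.289), and that of Oaz1 (-0.7097), which was called in neither case, and the cause was not tested. The within-library shift of Nos2 against Arg1 was -7.22, and -5.63 with log2(CPM + 1), which by construction raises the few cultured Arg1 reads. With single libraries left out it was -8.35 to -6.36. No paired analysis was possible because no label number occurs in both groups. Depth limits Arg1 in culture, at 15 to 23 reads per library.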
